A study of Homo sapiens with 4 samples.

Results

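Chromosome 1q21 carries most human S100 genes. Here 8 of them, S100A2, S100A4, S100A6, S100A10, S100A11, S100A13, S100A14 and S100A16, were followed in single-nucleus chromatin accessibility data, out of 19974 protein-coding genes on chromosomes 1 to 22 and X. The genes were listed by name and chosen by values of the same treatment comparison: earlier fold changes of these libraries, S100A6 among them, were known. For each, every peak that overlapped the gene or 3 kb on either side was taken. Peaks of the 4 libraries that overlapped were merged into 23 regions, of which 18 had a peak in every library. These 18 are the member regions below, out of 50771 regions of the genome with a peak in every library. S100A13 and S100A14 share 1 of them. The groups were Panc1 cells from transplanted mice given Inflachromene (mice 11 and 35) and Panc1 cells from transplanted mice given Carrier (mice 12 and 31), 1 library a mouse. Panc1 is an established human pancreatic ductal adenocarcinoma line, and Inflachromene is a compound reported to target HMGB1 and HMGB2, which bind DNA in chromatin. The labels give no dose, duration or graft site beyond the pancreas as tissue. The labelled cells all descend from 1 line, but whether each barcode is a Panc1 nucleus was not tested.

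S100 proteins are small calcium-binding proteins with EF-hand loops, most of which form dimers and bind partner proteins when calcium rises. S100A10 is the exception that has lost calcium binding and holds annexin A2 at the plasma membrane, where the complex serves as a plasminogen receptor, while S100A11 binds annexin A1. S100A4 binds non-muscle myosin and is known for its link with cell motility and metastasis, and S100A6 and S100A11 are abundant in pancreatic cancer cells. S100A2 is known from squamous and basal-like epithelia, S100A14 and S100A16 are epithelial members, and S100A13 assists the release of FGF1 and interleukin 1 alpha.

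Transposase insertions were counted per peak and barcode. The libraries held 27088391 and 39947056 counts (Inflachromene 11 and 35) and 33336531 and 29295799 counts (Carrier 12 and 31), and the member regions took 12721, 21736, 16956 and 14547 of them in that order of libraries. Deep barcodes, those with 2000 counts or more, held 95.6% to 98.3% of each library's counts. Barcode names were shared between libraries beyond the 25 to 29 of the other pairs in 3 pairs: 1209 between Inflachromene 11 and Carrier 12, 155 between Inflachromene 11 and Carrier 31, and 357 between Carrier 12 and Carrier 31. Nearly all of these were deep in a single library, and removing the shallower copy took 0.988% and 0.228% of the counts from Inflachromene 11 and 35 and 0.799% and 0.0407% from Carrier 12 and 31. Levels are given as CPM, counts scaled to 1000000 counts in the 50771 regions after TMM scaling (in barcode clusters, to the summed counts of that cluster and library, with no TMM scaling), and between genes as CPM per kb of the bases that a library's own peaks cover.

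All 7 carcinoma markers (KRT7, KRT8, KRT18, KRT19, EPCAM, CDH1 and MUC1) had a region within 3 kb, with a median of 21.04 CPM per kb for the highest region of each. All 4 mesenchymal genes (VIM, CDH2, ZEB1 and FN1) had one as well, with a median of 39.8 CPM per kb. Such a region was also found at 7 of 7 myeloid, 5 of 7 fibroblast and 4 of 5 endothelial markers. Their medians were lower, at 16.3, 12.03 and 10.4 CPM per kb, with genes without a region taken as 0. It was found at 1 of 4 T and NK, 1 of 3 B, 1 of 4 acinar, 1 of 3 endocrine and 0 of 3 Schwann markers. Single genes went against this order. The fibroblast marker COL1A1 reached 87.4 and the B marker CD79A 41.1 CPM per kb, where the carcinoma markers ran from 12.7 to 72.9. A RefSeq start site lay in such a region for 0 of the 7 carcinoma, 3 of the 4 mesenchymal, 1 of the 7 myeloid (CD14), 1 of the 7 fibroblast (PDGFRB) and 0 of the 5 endothelial markers, with starts matched for KRT8 and MUC1 among the carcinoma markers. The 7 myeloid markers reached from 5.36 (S100A8) to 24.6 CPM per kb (PTPRC).

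The upstream sequence of 6 members is shown because these start sites differ in CpG content and motifs. S100A13, the most accessible member, and S100A11 are not among them. Each sequence is the 200 bases before a RefSeq start site on GRCh38.p14, chromosome 1, minus strand, written 5′ to 3′. Capitals mark the TATA box core TATAA, the GC box GGGCGG, the AP-1 site TGANTCA and the TEAD site GGAATG, searched on both strands. The windows are chr1:153535992-153536191 (S100A6), chr1:151993860-151994059 (S100A10), chr1:153545807-153546006 (S100A4), chr1:153616326-153616525 (S100A14), chr1:153565845-153566044 (S100A2) and chr1:153609356-153609555 (S100A16).
S100A6: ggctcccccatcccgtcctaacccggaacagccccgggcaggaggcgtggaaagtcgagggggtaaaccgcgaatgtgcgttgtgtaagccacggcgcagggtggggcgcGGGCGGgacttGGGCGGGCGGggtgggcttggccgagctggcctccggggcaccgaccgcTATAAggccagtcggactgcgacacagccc
S100A10: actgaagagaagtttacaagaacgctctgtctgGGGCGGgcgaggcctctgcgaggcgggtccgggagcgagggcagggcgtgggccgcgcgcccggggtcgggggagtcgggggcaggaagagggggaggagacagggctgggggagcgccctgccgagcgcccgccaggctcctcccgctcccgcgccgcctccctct
S100A4: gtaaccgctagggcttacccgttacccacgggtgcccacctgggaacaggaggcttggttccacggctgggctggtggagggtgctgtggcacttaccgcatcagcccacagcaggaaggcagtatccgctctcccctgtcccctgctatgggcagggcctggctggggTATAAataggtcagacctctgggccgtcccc
S100A14: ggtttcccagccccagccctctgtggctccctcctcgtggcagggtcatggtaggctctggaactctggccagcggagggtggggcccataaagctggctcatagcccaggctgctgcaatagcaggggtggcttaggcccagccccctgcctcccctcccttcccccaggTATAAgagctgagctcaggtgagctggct
S100A2: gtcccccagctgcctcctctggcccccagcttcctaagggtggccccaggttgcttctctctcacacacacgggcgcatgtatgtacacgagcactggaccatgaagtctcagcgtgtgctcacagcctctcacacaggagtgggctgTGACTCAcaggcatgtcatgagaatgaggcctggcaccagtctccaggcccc
S100A16: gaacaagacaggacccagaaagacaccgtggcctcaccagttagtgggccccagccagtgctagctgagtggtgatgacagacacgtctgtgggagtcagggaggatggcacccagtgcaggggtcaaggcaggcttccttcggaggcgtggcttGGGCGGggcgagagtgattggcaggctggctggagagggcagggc

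S100A6 has a TATAA whose first base lies 30 bases before the start, and 3 GC boxes. S100A4 and S100A14 have a TATAA at 31 and 29 bases and no GC box. S100A10 and S100A16 each have 1 GC box, and S100A2 has an AP-1 site 52 bases before its start and neither of these motifs. GGAATG was in none of the 12 member windows, which says only that these letters do not occur there. Among 22132 RefSeq start sites of protein-coding genes, the same window held TATAA in 12.7%, GGGCGG in 50.9%, TGANTCA in 4.29% and GGAATG in 8.13%. Of the 12 member start sites, 8 lay in a region with a peak in every library, against 54.9% of all 22132. The 8 had a median of 15.5 CpG dinucleotides in the 300 bases from 250 before to 50 after the start, from 5 (S100A2) to 32 (S100A10). The other 4 had a median of 4.5: the start of S100A4 lay 104 bp from its region, that of S100A14 lay 980 bp away, and the remaining ones were alternative starts of S100A2 and S100A16. Over all start sites the same split was 27 CpG inside regions and 7 outside. S100A4, with 8 CpG, nevertheless had the second highest level of the 8 members when start regions were taken where there was one. That level is of its highest region, which does not hold its start. By the highest region of each member, S100A2 (55.2 CPM per kb) and S100A6 (50.22) stood above S100A4 (50.17).

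**Figure D1:**
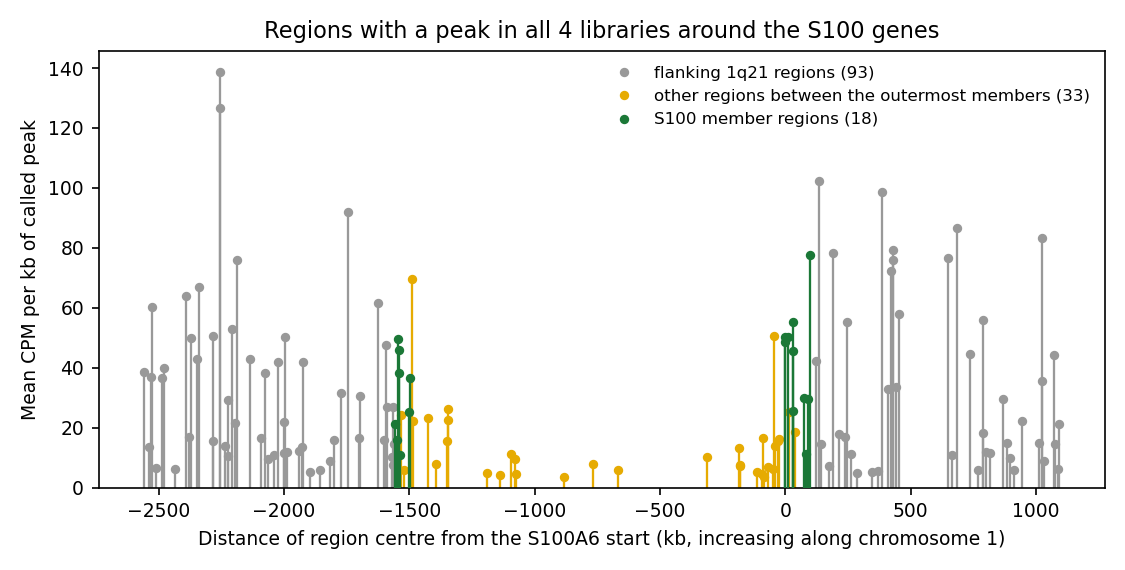
Mean CPM per kb of called peak over the 4 libraries (y axis) for each region with a peak in all of them, by distance of its centre from the S100A6 start in kb (x axis). The 18 member regions stand in 2 groups, separated by a stretch with few and low regions, and the 93 flanking regions lie within 1 Mb on either side.

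The members lie in 2 stretches. From S100A10 to S100A11 there were 16.6 regions per 100 kb, and from S100A6 to S100A13 there were 11.3, against 5.2 and 4.1 in the 1 Mb on either side and 1.94 in the 1492 kb between, where the epidermal differentiation genes lie. The median level of the member regions was 37.5 CPM per kb, against 22.1 in the flanking regions and 9.78 between the stretches. That members have regions, and high ones, was part of what chose them, so these values describe the locus and test nothing.

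Each member is represented by the region that holds its start site, or by its highest region where no start site lies in one. S100A13 was the most accessible, with 76.3 and 80.0 CPM per kb in Inflachromene 11 and 35 and 77.1 and 77.3 in Carrier 12 and 31. Its region (chr1:153633651-153634636) also holds the start of CHTOP, so the value belongs to both genes. S100A4 (chr1:153544822-153545702, inside the gene) had 49.9 and 50.5 CPM per kb with Inflachromene and 52.3 and 47.9 with Carrier.

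S100A6 (chr1:153535666-153536579) had 50.7 and 48.5 CPM per kb with Inflachromene and 47.0 and 47.9 with Carrier. S100A10 (chr1:151993483-151994503) had 49.1 and 47.1 with Inflachromene and 42.2 and 45.5 with Carrier. S100A11 (chr1:152036563-152037438) had 33.4 and 43.1 with Inflachromene and 32.6 and 37.7 with Carrier. In S100A6 and S100A10 both Inflachromene libraries lay above both Carrier libraries, by small steps, while in S100A11 the groups overlapped.

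S100A16 (chr1:153608726-153609703) spread the most, with 21.4 and 38.7 CPM per kb with Inflachromene on either side of 29.8 and 29.98 with Carrier. S100A2 (chr1:153565325-153566097) had 21.5 and 33.1 with Inflachromene and 26.0 and 21.98 with Carrier. S100A14 (chr1:153617305-153618241, upstream of its start) was the least accessible, with 9.12 and 10.7 with Inflachromene and 11.9 and 12.9 with Carrier. In S100A16 and S100A2 it was Inflachromene 35 that stood high, and in S100A14 both Inflachromene libraries lay below both Carrier libraries.

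The order from S100A13 down to S100A14 held in all 4 libraries at 5 of the 7 steps. The exceptions were S100A4 over S100A6, which held in 2 libraries, and S100A16 over S100A2, which held in 3. Among all 50771 regions, the level of S100A13 stood at percentile 96.1, those of S100A4, S100A6, S100A10 and S100A11 between 81.9 and 88.6, those of S100A16 and S100A2 at 77.4 and 73.3, and that of S100A14 at 44.3. In single barcodes thinned to 5000 counts, S100A13 had a count in 26.6% and 27.7% of them with Inflachromene and 26.3% and 28.4% with Carrier (41.7%, 44.2%, 38.9% and 54.4% of deep barcodes before thinning), with exact 95% intervals for counting error that reached from 24.2% to 31.8%. S100A14 had one in 3.39% and 4.07% with Inflachromene and 3.81% and 3.91% with Carrier (6.07%, 7.38%, 7.54% and 13.4% before), with intervals from 2.47% to 5.57%. Thinning left out 232 and 217 deep barcodes of Inflachromene 11 and 35 and 130 and 197 of Carrier 12 and 31.

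**Figure D2:**
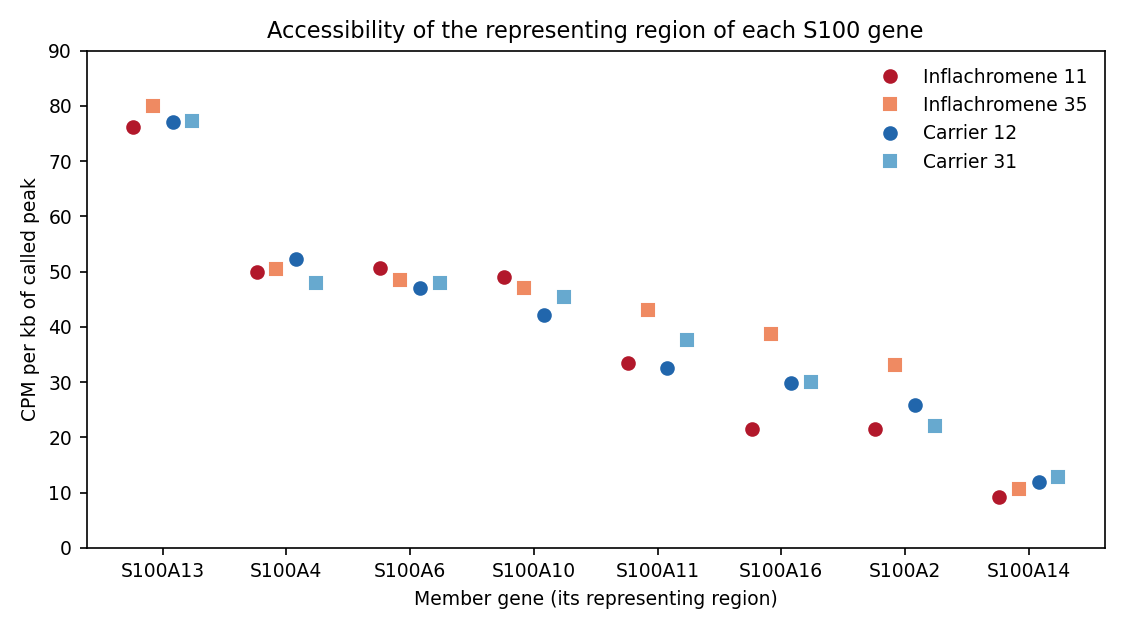
CPM per kb of called peak (y axis) in the representing region of each member (x axis), 1 point a library, with Inflachromene in red shades and Carrier in blue shades. S100A13 stands near 77.7 on average and S100A14 near 11.1, and the wide spread of S100A16 comes from the Inflachromene libraries at 21.4 and 38.7.

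The study compared Inflachromene with Carrier. None of the 18 member regions was called by edgeR's quasi-likelihood test after Benjamini-Hochberg adjustment at 0.05, and none by DESeq2. The background was 0.0% of the 50771 regions by edgeR and 0.0638% of 43880 by DESeq2. At an unadjusted p under 0.05 edgeR had 2274 regions (4.48%), 2 of them member regions. Because the members were proposed with this comparison known, their fold changes are given as descriptions, without p. At the representing regions the log2 fold change of Inflachromene over Carrier was 0.18 ± 0.15 for S100A10, 0.17 ± 0.25 for S100A2, 0.11 ± 0.18 for S100A11 and 0.09 ± 0.14 for S100A13 (± SE, n = 2 each). It was 0.07 ± 0.14 for S100A6, 0.03 ± 0.25 for S100A16, -0.01 ± 0.15 for S100A4 and -0.33 ± 0.22 for S100A14. Single libraries decided several of these values. Without Inflachromene 35 they were -0.25 for S100A2, -0.12 for S100A11 and -0.48 for S100A16, and without Inflachromene 11 they were 0.48, 0.29 and 0.40 in the same order. With 1 library left out in turn, S100A4 lay between -0.06 and 0.05, S100A13 between 0.04 and 0.15, S100A10 between 0.11 and 0.24, S100A6 between 0.05 and 0.09, and S100A14 between -0.46 and -0.23. The 95% interval of each of the 8 in all libraries spanned 0. That of S100A6 ran from -0.26 to 0.39 and that of S100A16, the widest, from -0.53 to 0.59. With 2 mice a group, each interval thus left changes of either sign possible.

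Per called kb, the Inflachromene libraries both lay above the Carrier libraries in 4 member regions, where 13.4% of all regions did so, and both below in 2, where 17.6% did. The 4 were the S100A6 start, the S100A10 start, a region inside S100A10 and the region of the downstream S100A13 starts. The 2 were the region shared by S100A13 and S100A14 and the region beyond the S100A6 3′ end, where Inflachromene 35 and Carrier 31 were level at 48.0 CPM per kb. Nothing is read from these counts. Of the 18 log2 fold changes, 13 were above 0 and 5 below, with a median of 0.10. The 93 flanking regions had 58 above and 35 below with a median of 0.07, the 29 between the 2 stretches had 8 above and 21 below with a median of -0.11, and all regions had 26270 above and 24501 below with a median of 0.01.

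**Figure D3:**
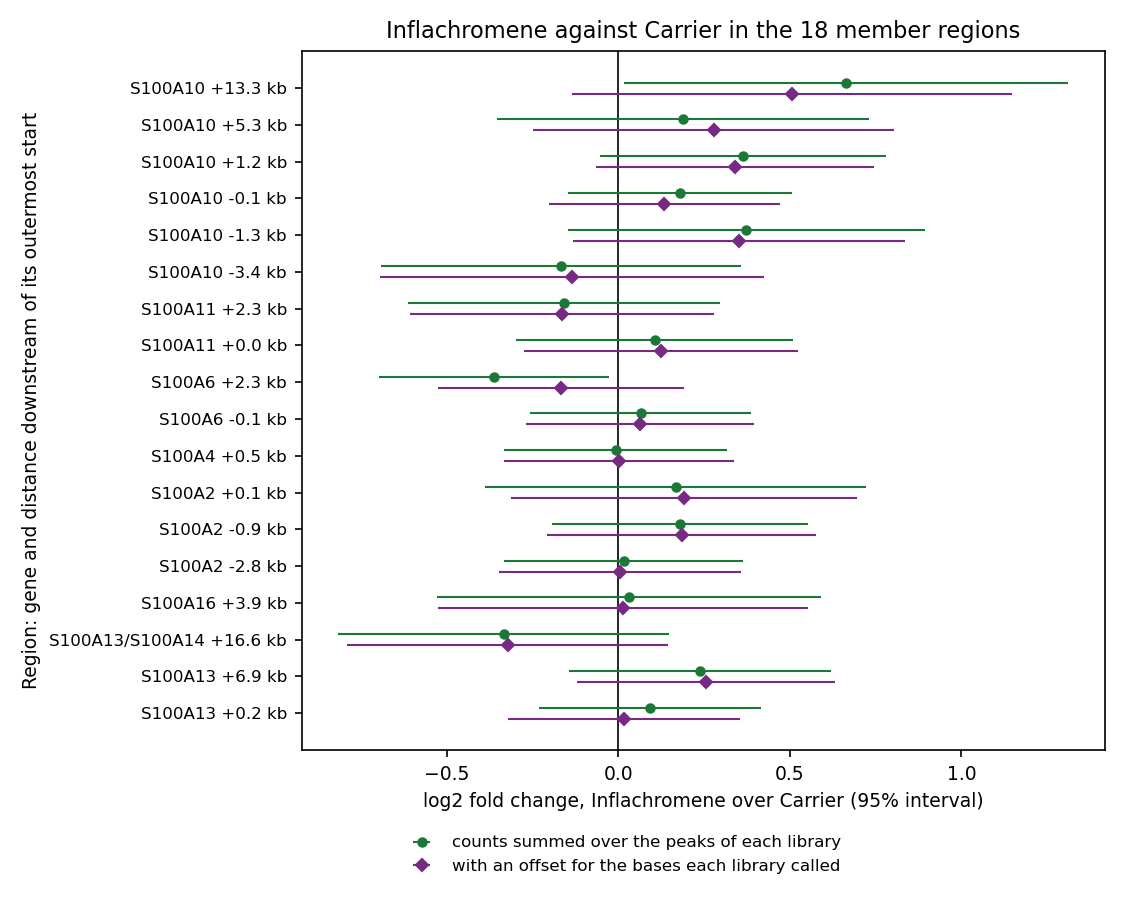
Log2 fold change of Inflachromene over Carrier with its 95% interval (x axis) for the 18 member regions, listed by gene and by kb downstream of the gene's outermost start (y axis, negative upstream), from summed counts (circles) and with an offset for called bases (diamonds). The region beyond the S100A6 3′ end goes from -0.36 with circles to -0.17 with diamonds. The highest value, 0.66 with circles and 0.51 with diamonds, belongs to the region 3′ of S100A10.

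The lowest of the member values belonged to S100A6, but not to its start. The region chr1:153533124-153534258 begins 341 bp beyond the 3′ end of S100A6. It also holds the start of the gene LOC124904423, so its value does not belong to S100A6 alone. It had 39.9 and 34.99 CPM in Inflachromene 11 and 35 and 47.2 and 49.0 CPM in Carrier 12 and 31, without overlap of the groups, a log2 fold change of -0.36 ± 0.15 (SE, n = 2 each). The libraries did not call the same bases there. Inflachromene 11 had 2 peaks over 855 bp and Inflachromene 35 had 1 peak over 729 bp, while Carrier 12 and Carrier 31 had 2 peaks each, over 810 and 1020 bp. Per kb of called bases the values were 46.6 and 48.0 in Inflachromene 11 and 35 and 58.3 and 48.0 in Carrier 12 and 31, so that Inflachromene 35 and Carrier 31 were level and Carrier 12 stood alone. With an offset for the called length the log2 fold change was -0.17 (95% interval -0.52 to 0.19).

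When peaks were merged only where they overlapped by at least 50% of the shorter one, the region fell into 2 pieces. The piece nearer the gene (chr1:153533530-153534258) had a peak in every library, with 427 and 1161 counts in Inflachromene 11 and 35 and 704 and 686 in Carrier 12 and 31. Its log2 fold change was 0.11 (95% interval -0.49 to 0.70), opposite in sign to the whole, with 393 and 729 called bp in the Inflachromene libraries and 410 and 528 in the Carrier libraries. The outer piece (chr1:153533124-153533618) had 515 counts in Inflachromene 11 and no separate peak in Inflachromene 35, against 722 and 595 counts in Carrier 12 and 31. The difference at the S100A6 3′ end therefore changed with the bases that were counted. In single deep barcodes thinned to 5000 counts, the whole region had a count in 15.5% and 12.7% with Inflachromene and 17.0% and 19.4% with Carrier (26.4%, 24.1%, 30.6% and 44.1% before thinning), and these shares depend on called length in the same way. At the start of S100A6, where called lengths lay between 852 and 889 bp in all libraries, the offset left the log2 fold change at 0.06. A spread of called length of at least 1.2-fold between libraries, as beyond the S100A6 3′ end, was found in 2 of the 18 member regions and in 8.63% of all regions.

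**Figure D4:**
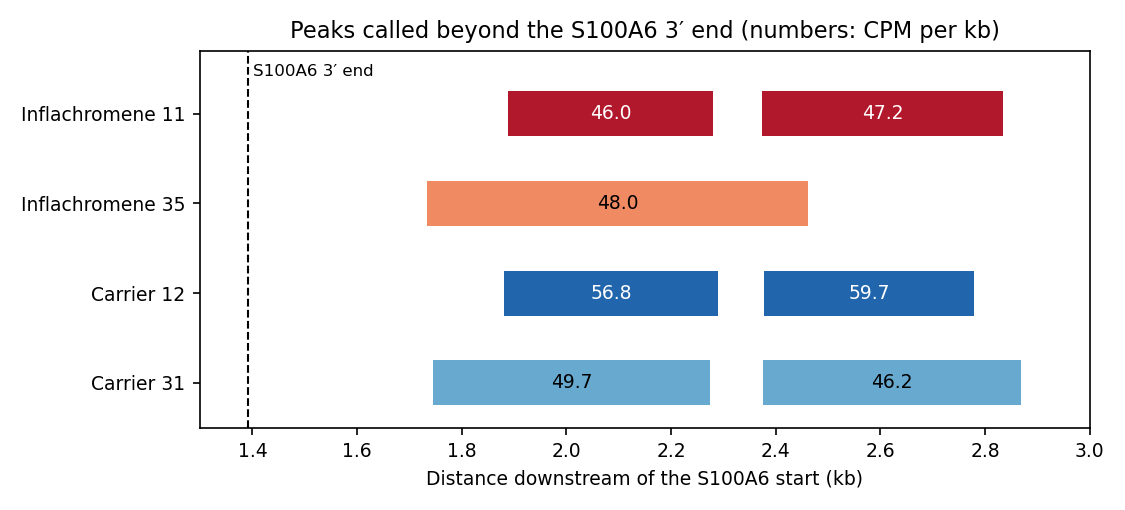
Peaks called by each library (rows) beyond the 3′ end of S100A6, by distance downstream of the S100A6 start in kb (x axis), with CPM per kb of each peak written in it. Inflachromene 35 called a single peak at 48.0 CPM per kb, while the other 3 libraries called 2 peaks each, the highest being those of Carrier 12 at 56.8 and 59.7.

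S100A10 had the highest values and the most regions, 6 with a peak in every library. The region chr1:151980156-151981030, past the 3′ end of the gene, had 16.9 and 32.8 CPM per kb in Inflachromene 11 and 35 and 19.96 and 15.1 in Carrier 12 and 31, a log2 fold change of 0.66 ± 0.29. The region upstream of the start, chr1:151994731-151995630, had 32.7 and 53.1 with Inflachromene and 34.9 and 32.5 with Carrier, a log2 fold change of 0.37 ± 0.23. The region inside the gene next to the start, chr1:151992166-151993054, had 46.4 and 64.2 with Inflachromene and 41.9 and 45.6 with Carrier, a log2 fold change of 0.36 ± 0.19. In all 3 it was Inflachromene 35 that was high, and Inflachromene 11 lay near or among the Carrier libraries.

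These 3 were the member regions that edgeR called when Inflachromene 11 was left out, all higher, where 6.26% of all regions were called. Without Inflachromene 35 their log2 fold changes were 0.18, -0.08 and 0.07 in the same order, and no member region was called (0.589% of all regions were). Nor was any without Carrier 31 (0.00985%). Inflachromene 35 also held nearly all of 1 barcode cluster, number 5, with 23.3% of its deep barcodes, against 1.83% of those of Inflachromene 11 and 0.0966% and 0.213% of those of Carrier 12 and 31. Within Inflachromene 35, cluster 5 had 62.3 CPM at the region past the 3′ end, against 14.4, 8.41 and 11.6 CPM in clusters 1, 2 and 3. At the start of S100A10 it had 67.9 CPM, against 37.1, 38.3 and 42.1, but cluster 6 of the same library, with 56 barcodes, had 62.3, and cluster 6 of Inflachromene 11 and of Carrier 12 had 54.2 and 57.7. The flanking regions together were also higher there, at 3991 CPM against 2733, 2957 and 2575. These clusters were built without chromosome 1. With cluster 5 left out of every library the log2 fold change past the 3′ end was -0.01, those of the other 2 regions were 0.13 (upstream) and 0.19 (inside the gene), and that of the start was 0.05. What sets cluster 5 apart was not tested.

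The remaining regions lay near the starts of S100A2, S100A10, S100A11 and S100A13. Upstream of S100A2, the region at chr1:153566266-153567140 was more accessible than that of the start in every library, with 49.8 and 67.6 CPM per kb with Inflachromene and 51.5 and 51.8 with Carrier, a log2 fold change of 0.18 that was -0.03 without Inflachromene 35 and 0.35 without Inflachromene 11. The next one upstream, at chr1:153568219-153569074, had 46.1 and 45.2 with Inflachromene and 49.0 and 41.9 with Carrier. Inflachromene 35 again stood high at the first of these, and at the second the groups overlapped.

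Inside S100A10, the region at chr1:151988149-151989028 had 13.7 and 21.1 CPM per kb with Inflachromene and 15.2 and 13.6 with Carrier, and the outermost upstream region of the gene had 8.14 and 13.02 with Inflachromene and 11.5 and 11.8 with Carrier. Inside S100A11, the region at chr1:152034264-152035207 had 19.6 and 27.9 with Inflachromene and 27.9 and 25.4 with Carrier. At the downstream S100A13 starts, chr1:153627006-153627957, the values were 29.7 and 34.7 with Inflachromene and 28.3 and 25.7 with Carrier, a log2 fold change of 0.24 (0.11 without Inflachromene 35). The groups overlapped in all but the last.

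Some regions of the members had a peak in only some libraries and so have no count in the others. A region inside S100A2 (chr1:153561340-153562623) had a peak in both Inflachromene libraries, with 134 and 244 counts, and in neither Carrier library. A region past the 3′ end of S100A10 (chr1:151981068-151981580) had a peak in both Carrier libraries, with 225 and 186 counts, and in neither Inflachromene library. Inside S100A10, Inflachromene 35 alone had a peak with 957 counts at chr1:151989193-151990109 and Inflachromene 11 alone had a peak with 135 counts at chr1:151982267-151983097. The alternative start of S100A16, together with the 3′ side of S100A14, had a peak in Carrier 31 alone (283 counts). The number of member regions with a peak was 20 and 20 in the Inflachromene libraries and 19 and 20 in the Carrier libraries, and no peak in a library is a call by the authors' caller, not a measured 0.

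Summed over the 18 regions, the members had 538 and 655 CPM in Inflachromene 11 and 35 and 561 and 556 CPM in Carrier 12 and 31. The means were 597 ± 82.5 CPM with Inflachromene and 559 ± 3.698 CPM with Carrier (SD, n = 2 each), a log2 difference of 0.10. The difference was within the spread of the Inflachromene libraries, and without Inflachromene 35 it was -0.06. The flanking regions moved by 0.09, and the log2 ratio of member to flanking counts averaged -2.28 in both groups, a difference of -0.00 with a pooled SD of 0.06. A change in DNA copy number that covers members and flanks alike cancels in this ratio.

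S100A2 and S100A16 differed between barcode clusters in every library. So that no member region took part in making them, clusters were built on regions outside chromosome 1. In cluster 2, S100A2 had 7.29 and 7.47 CPM in Inflachromene 11 and 35 and 9.32 and 10.7 CPM in Carrier 12 and 31, against 23.2, 23.7, 23.8 and 20.98 CPM in cluster 1 of the same libraries. The median log2 difference was -1.51, with a range over libraries from -1.67 to -0.97. S100A16 had 16.6 and 21.3 CPM in cluster 2 of the Inflachromene libraries and 18.5 and 16.8 in that of the Carrier libraries, against 38.3, 39.9, 32.2 and 41.3 CPM in cluster 1. Its median log2 difference was -1.06, from -1.30 to -0.80.

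The starts of S100A6, S100A10 and S100A11 did not share this. S100A6 had a median log2 difference of 0.06 between clusters 2 and 1, S100A10 of -0.01 and S100A11 of -0.03, each higher in some libraries and lower in others. The region that S100A13 shares with CHTOP was higher in all 4, with a median of 0.21, while the region of the other S100A13 starts was lower in all 4, with a median of -0.26. S100A4 and S100A14 were lower in all 4, with medians of -0.43 and -0.34. Some regions away from the starts were lower in all 4 libraries too: the region past the 3′ end of S100A10 by a median of -0.80, the one inside it at chr1:151988149-151989028 by -0.98, the one upstream of S100A2 at chr1:153566266-153567140 by -0.82, the one upstream of S100A10 at chr1:151994731-151995630 by -0.55, the one inside S100A11 by -0.10 and the one beyond the S100A6 3′ end by -0.40. Others were not: the outer region upstream of S100A2 had a median of 0.05 and was higher in 2 libraries, and the region inside S100A10 next to the start (-0.06) and the outermost one upstream of it (-0.38) were each higher in 1. In all, 11 of the 18 member regions were lower in cluster 2 in every library and 1 was higher, where 32.7% of the 5047 regions of chromosome 1 were lower and 19.5% were higher. With 1 CPM added to each value before the logarithm, a median below -1 was found in 11.8% of chromosome 1 regions. On that scale S100A2 had a median of -1.40, at percentile 3.92 of that distribution, and S100A16 had -1.02, at percentile 11.3. The flanking regions together moved the other way, by a median of 0.13.

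**Figure D5:**
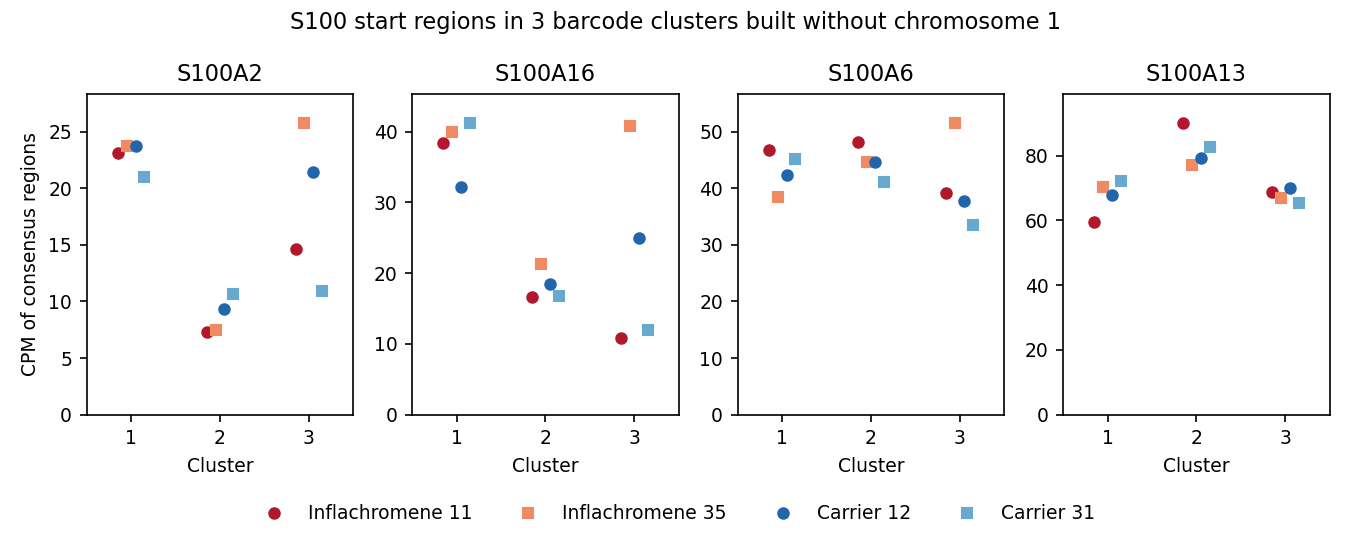
CPM (y axis) at the start regions of S100A2, S100A16, S100A6 and S100A13 in clusters 1, 2 and 3 (x axis), 1 point a library, with Inflachromene in red shades and Carrier in blue shades. S100A2 and S100A16 are lower in cluster 2 than in cluster 1 in all 4 libraries, S100A6 is not, and cluster 3 spreads widely between libraries.

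Cluster 3 was mixed. S100A16 had 10.9 and 40.8 CPM there in Inflachromene 11 and 35 and 24.9 and 11.9 CPM in Carrier 12 and 31, and S100A2 had 14.6 and 25.8 with Inflachromene and 21.4 and 10.9 with Carrier. Cluster shares differed between libraries: cluster 1 held 13.6% and 23.1% of deep barcodes with Inflachromene and 54.4% and 30.7% with Carrier, and cluster 2 held 30.4% and 13.4% with Inflachromene and 25.5% and 29.4% with Carrier. Within cluster 1, S100A2 had the 23.2 and 23.7 CPM of the Inflachromene libraries beside the 23.8 and 20.98 of the Carrier libraries. The S100A6 3′ region, per called kb, had 54.2 and 62.5 in cluster 1 with Inflachromene and 67.3 and 57.8 with Carrier, and 41.2 and 37.8 in cluster 2 with Inflachromene and 51.9 and 43.6 with Carrier. The groups thus overlapped in cluster 1 and did not in cluster 2. In cluster 2 that region held 275 and 118 counts in the Inflachromene libraries and 298 and 391 in the Carrier libraries. The groups also overlapped in cluster 3, with 42.0 and 40.3 per called kb with Inflachromene and 47.8 and 30.9 with Carrier, and in cluster 4. No share over all regions is given for cluster 2, so nothing is read from the separation there.

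Across 21 sums of counts, 1 for each library and cluster with at least 50 deep barcodes (clusters built on all chromosomes), S100A4 and S100A6 varied together with r = 0.96, S100A4 and S100A11 with r = 0.93, and S100A6 and S100A11 with r = 0.90. The sums share libraries and these values are descriptions. They rest on cluster 7 of Carrier 31, a sum of 97 barcodes with a median of 2799 counts, in which S100A2, S100A4, S100A6, S100A11 and S100A14 had 0 counts while S100A10 had 12 and S100A13 had 20. Over the other 20 sums the same 3 values were 0.51, 0.44 and -0.04. The regions most like S100A16 over the 20 sums were those at KLF5 (r = 0.76), IL6 (r = 0.71) and LMNTD1 (r = 0.69), among 13077 regions at gene ends. With cluster 7 KLF5 was again the first (r = 0.66), but KLHDC8A and SMIM21 followed (r = 0.63 each). Over the 20 sums, the regions most like S100A13 were at CHEK2 and HSCB (r = 0.87), SNRPB (r = 0.87) and ZNF319 (r = 0.85). Most like S100A4 were TSPAN6 (r = 0.78), RAD51D (r = 0.78) and APLN (r = 0.76). Each is among the highest of 13077 values, and whether it exceeds chance was not tested.

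Of the 12 other S100 genes in the gene table, 7 had a region within 3 kb (S100A1, S100A3, S100A5, S100A7A, S100A8, S100A9 and S100Z). For S100A1, S100A3 and S100A5 the highest such region was a member region, and S100A7A and S100A8 shared theirs, at 5.36 CPM per kb. S100A3 alone of the 12 had a start site in a region. That region had 23.1 and 32.7 CPM per kb in Inflachromene 11 and 35 and 23.8 and 21.4 in Carrier 12 and 31, with a log2 fold change of 0.36 ± 0.21. Between the 2 stretches, 2 of 41 epidermal differentiation genes (FLG2 and TCHH) had a region within 3 kb and none had a start site in one. Of 22 genes for known partners of S100 proteins, 20 had a region within 3 kb and 16 had a start site in one. Among these 16, 12 log2 fold changes were above 0 and 4 below, with a median of 0.12, and none was called. The 4 with the smallest unadjusted p were ANXA1, which encodes the annexin bound by S100A11 (0.60 ± 0.27), CAPN1, a calcium-activated protease (0.34 ± 0.16), ANXA2, which encodes the partner of S100A10 (0.38 ± 0.20), and ANXA6 (0.30 ± 0.20). These folds are from summed counts. Per called kb, ANXA1 had 7.25 and 12.995 CPM in Inflachromene 11 and 35 and 7.35 and 6.98 in Carrier 12 and 31, so the higher value was that of 1 library. ANXA2 had 53.9 and 40.0 CPM per kb with Inflachromene and 48.7 and 45.7 with Carrier, which overlapped. The groups also overlapped for CAPN1, with 41.8 and 34.50 with Inflachromene and 34.53 and 29.4 with Carrier. For ANXA6 they overlapped too, with 21.4 and 27.8 with Inflachromene and 18.3 and 22.5 with Carrier.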

How the data were processed

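Nuclei were prepared with a 10x Chromium single-cell ATAC v2 kit, per the labels' protocols, and the submitters' processing notes name GRCh38, Cell Ranger ARC and Cell Ranger ATAC 2.1.0. The authors deposited, for each peak in each barcode, whole-number counts, with peaks called in each library separately, so a library has no count where it called no peak. Between 82.4% and 84.9% of the entries are even numbers.

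Peaks overlapping by at least 1 bp were merged across libraries on chromosomes 1 to 22 and X, and the 50771 regions with a peak in all 4 libraries were tested on counts summed over barcodes, the mouse being the replicate (edgeR 4.0.16 quasi-likelihood test in R 4.3.3, TMM scaling, Benjamini-Hochberg adjustment, threshold 0.05). SE of log2 fold changes came from the same fit. Clusters were built on all barcodes (30 latent semantic components with the first left out, 15 neighbours, leidenalg 0.10.2 at resolution 0.5). Cluster shares and cluster sums then used the deep barcodes. Doublets were not removed. Intervals on shares of barcodes cover counting error only, and cluster sums have no error beyond the spread of the 4 libraries. CpG and motifs came from RefSeq promoter sequences.

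All 8 members were named with every region in their windows, and of other genes those of listed families and partners, up to 4 by smallest p. Members and lists were chosen with earlier results of these data known. Alternatives were DESeq2 1.42.0, RLE scaling, count filters, barcodes in place of counts, deep barcodes, a stricter merge, other windows and flanks, clusters 1 and 2 only, and each library left out. Labels give each library its mouse and treatment but no batch.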

Additional observations from a re-analysis of the deposited data

How the results depend on the processing

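The count of called regions over the genome was 0 with edgeR in all 4 libraries and remained 0 with RLE scaling, another count filter or none, barcodes in place of counts, deep barcodes, clusters 1 and 2 only and the stricter merge. It was 28 with DESeq2, and it ran from 0 to 3180 when 1 library was left out: 3180 without Inflachromene 11, 299 without Inflachromene 35, 5 without Carrier 31 and 0 without Carrier 12. The summed members differed by a log2 of 0.10, and by -0.06 to 0.23 with 1 library left out, the lowest value without Inflachromene 35 (-0.063). The ratio of members to flanking regions differed by -0.00, by -0.05 to 0.05 with 1 library left out, and by 0.11 against the regions between the 2 stretches. The cause of these shifts was not tested.

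Leaving out the shared barcodes, leaving out cluster 5 (of clusters built on all chromosomes, or without chromosome 1), an offset for called length and one for 10 Mb windows were chosen after seeing the data, and each left the count of called regions at 0. The summed members differed by 0.09 without the shared barcodes and by 0.00 and -0.00 without cluster 5 of either kind. S100A2 and S100A16 were lower in cluster 2 than in cluster 1 by medians of -1.48 and -1.07 when clusters were built on all chromosomes. No paired analysis was possible because the groups share no mouse number. With 2 mice a group, 1 line and no count outside a library's own peaks, small changes at the members were not detectable.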
